A study of Homo sapiens with 5 samples.

Results

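The 9 genes described here encode parts of the MHC class I pathway. They are the heavy chain genes HLA-B, HLA-C, HLA-E and HLA-F, the light chain gene B2M, the peptide transporter genes TAP1 and TAP2, and the immunoproteasome genes PSMB8 and PSMB9. The set was chosen with earlier results of these data known. The genes were taken by symbol from the platform's annotation and are 9 of 12893 genes measured. They were read by 20 probe sets, each with 1 gene symbol, and 0 probe sets paired a member with another symbol. The 1 probe set with several HLA symbols named the class II genes HLA-DRB4, HLA-DRB3, HLA-DRB1 and HLA-DQB1 and is kept apart. It read 0.71 on control array 1, 0.32 on control array 2 and 0, -1.51 and -1.94 under siRNAs 1, 2 and 3.

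The cells were HepG2, an established human liver cancer line, and their LSD2, the histone H3 lysine 4 demethylase encoded by KDM1B, was depleted with 3 different small interfering RNAs (siRNAs). Each siRNA was measured on 1 array, and the control, GL3 siRNA, which matches firefly luciferase, on 2 arrays. All cells were grown in 25 mM glucose with 10% serum and harvested after 3 to 4 days of culture. As control array 2 repeats control array 1 as a technical replicate, per the labels, the control counted as 1 sample, and p-values measure the spread between siRNA arrays, which may be partly technical. The RNA came from whole cultures, so a change in every cell and a change in some cells cannot be told apart.

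MHC class I molecules display peptides from inside the cell to CD8+ T cells. The proteasome cuts proteins into peptides, the TAP1-TAP2 transporter carries these into the endoplasmic reticulum, and chaperones load them onto a heavy chain paired with beta-2-microglobulin. Interferon induces most of these genes, and PSMB8 and PSMB9 replace catalytic subunits of the standard proteasome. Hepatocytes have little class I on their surface in healthy liver and more during inflammation.

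The values are on a log2 scale (base 2 was assumed) and the median over the 5 arrays was 0 in each probe set, so 0 marks the middle array and a gene's abundance is not in the values. Differences below are from the mean of both control arrays unless another reference is named. KDM1B stood at -2.60, -1.73 and -1.38 under siRNAs 1, 2 and 3. Bacterial poly-A transcripts, spiked into the RNA before labelling, read lower on control array 2 and siRNA 3 than on the other arrays, with medians of -1.45 and -1.39 against control array 1 over 24 probe sets, while siRNAs 1 and 2 stood at 0.040 and 0.073. Each siRNA was therefore also set against the control array with the like spike-in level, control array 1 for siRNAs 1 and 2 and control array 2 for siRNA 3. This is called the spike-matched control below, and the labels name no batch.

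Windows before 6 of the members' starts are printed here to show where matches to known motifs of interferon and class I control lie. Elements outside a window or of another kind were not searched for, so a window without a match does not show that the gene lacks them. Each line gives the 200 bases before the RefSeq gene start (GRCh38.p14), 5′ to 3′ on the gene's strand, with motif matches in capitals. The motifs, searched on both strands, were an interferon response element (TTCNNTTTC or TTTCNNTTC), the NF-kB consensus, the core of the cyclic AMP response element (TGACG) and the CCAAT box (ATTGG), and matches may overlap.
HLA-B, chr6:31357180-31357379, minus strand: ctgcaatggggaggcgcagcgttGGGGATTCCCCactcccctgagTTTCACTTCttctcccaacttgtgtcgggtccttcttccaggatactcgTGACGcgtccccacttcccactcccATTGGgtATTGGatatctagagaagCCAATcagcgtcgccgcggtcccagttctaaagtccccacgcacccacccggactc
HLA-C, chr6:31272093-31272292, minus strand: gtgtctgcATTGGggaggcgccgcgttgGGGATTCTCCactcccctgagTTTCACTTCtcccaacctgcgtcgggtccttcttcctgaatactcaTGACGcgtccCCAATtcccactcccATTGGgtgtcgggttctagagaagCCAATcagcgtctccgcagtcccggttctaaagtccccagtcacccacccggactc
HLA-F, chr6:29723234-29723433, plus strand: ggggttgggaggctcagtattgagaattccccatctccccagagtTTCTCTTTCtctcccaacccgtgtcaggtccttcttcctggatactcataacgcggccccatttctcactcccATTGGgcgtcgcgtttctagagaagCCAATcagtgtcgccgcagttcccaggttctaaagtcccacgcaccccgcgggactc
B2M, chr15:44711317-44711516, plus strand: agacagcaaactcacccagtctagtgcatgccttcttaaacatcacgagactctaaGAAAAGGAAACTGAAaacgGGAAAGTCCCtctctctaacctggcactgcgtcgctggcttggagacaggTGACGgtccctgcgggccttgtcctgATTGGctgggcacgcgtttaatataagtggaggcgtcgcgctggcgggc
TAP1, chr6:32853705-32853904, minus strand: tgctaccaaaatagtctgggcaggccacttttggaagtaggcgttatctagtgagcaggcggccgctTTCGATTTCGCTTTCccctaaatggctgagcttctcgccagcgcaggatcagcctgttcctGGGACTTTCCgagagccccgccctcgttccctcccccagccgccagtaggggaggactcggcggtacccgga
PSMB9, chr6:32853992-32854191, plus strand: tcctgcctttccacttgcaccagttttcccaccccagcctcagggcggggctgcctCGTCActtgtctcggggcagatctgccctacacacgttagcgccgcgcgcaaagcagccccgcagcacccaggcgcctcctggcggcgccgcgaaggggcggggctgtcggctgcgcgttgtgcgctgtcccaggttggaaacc

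Promoters were matched for 8 of the 9 members, in 10 entries, and HLA-E had no entry. An interferon element was in 6 of the 8 members, TGACG in 6, the NF-kB consensus in 4 and a CCAAT box in 4. In HLA-B and HLA-C the same order appears from far to near: the NF-kB consensus, the interferon element, TGACG and then CCAAT boxes, and HLA-C has 1 more CCAAT box farther out than these. HLA-F holds the interferon element and 2 CCAAT boxes, and B2M holds all 4 motifs. The window before the more upstream start of TAP1, the one printed, has 2 overlapping interferon elements and 1 NF-kB match. PSMB9, whose start lies 488 bases from that of TAP1 on the opposite strand, has 1 TGACG in its window, on the other strand. Among 35116 windows of the same length, 9.87% held the interferon element, 8.14% the NF-kB consensus, 18.4% TGACG and 28.0% a CCAAT box. Of the members not printed, TAP2 holds 2 overlapping interferon elements and 1 TGACG, and PSMB8 has 1 TGACG in 1 of its 2 entries and no match in the other, as has the more downstream entry of TAP1. A match is a string of letters and was not tied to binding in these cells.

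Under LSD2 siRNA 5 of the 9 genes lay above both control arrays on each of the 3 siRNA arrays: HLA-B, HLA-C, HLA-F, TAP1 and PSMB9. Over all genes 8.63% did so. None of the 9 lay below both control arrays under all 3 siRNAs, against 10.1% of all genes. The median of the members' mean differences was 0.53, and that of all genes was -0.023 with quartiles of -0.28 and 0.23. Without probe sets of the suffix _x_at, which may bind other transcripts, 6 members were left with a median of 0.26 and 2 above both controls, and without _x_at and _s_at probe sets 4 were left at -0.026 with 1 above. By siRNA the members' medians were 0.26, 0.77 and 0.61 under siRNAs 1, 2 and 3, so siRNA 1, with the deepest loss of KDM1B, had the smallest. Against the spike-matched control the medians were 0.070, 0.53 and 0.81. The members are not independent readings, since HLA probe sets can share transcripts and 4 members are close neighbours.

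No member passed the test. In limma, 0 of the 9 had an adjusted p under 0.05, as did 0% of all genes, and each member had an adjusted p = 0.9999. Before adjustment 0 members had a p under 0.05, against 1.69% of all genes. The siRNA target KDM1B did not pass in limma either (adjusted p = 0.9999, unadjusted p = 0.0236), so a failure to pass does not show that a gene was unchanged. A limma fit with the spike-in side as a block took the 5 arrays separately, so the technical replicates of the control counted as 2 samples. In that fit TAP1 was the 1 member under 0.05 before adjustment, at 0.0458, with an adjusted p = 0.993. Of all genes 3.86% were under 0.05 before adjustment there. With the arrays separate and no block, limma also had 1 member under 0.05 before adjustment, so the block's own part cannot be read from this. The second control array read below the first in 8 of the 9 members and in 55.5% of all genes. The members' median difference was -0.26 against -0.058 over all genes, where the median absolute difference was 0.31. The choice of control array thus moves the members' values.

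**Figure D1:**
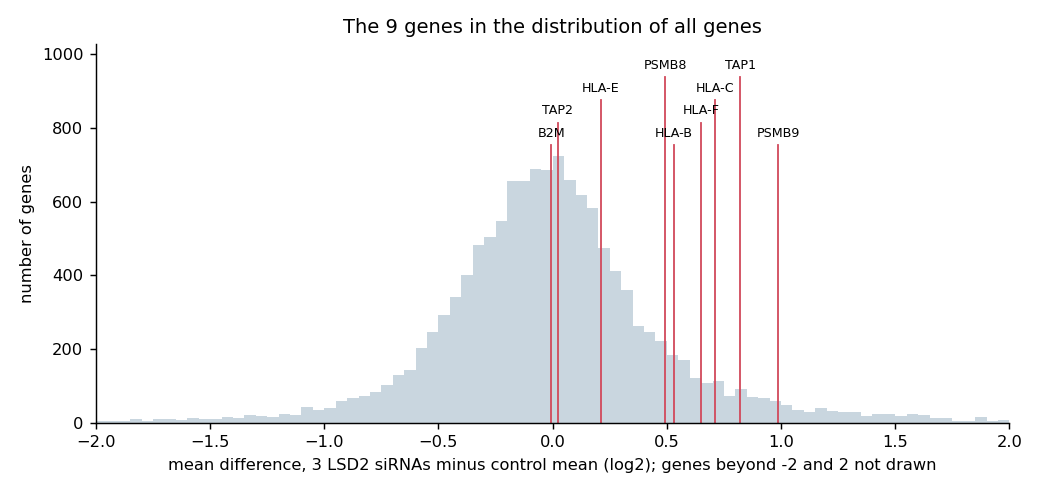
Histogram of the mean difference of 12893 genes (x, log2, 3 LSD2 siRNAs minus the control mean, values beyond -2 and 2 not drawn; y, number of genes), with a red line for each of the 9 class I presentation genes. B2M at -0.0064 and TAP2 at 0.022 sit at the centre, HLA-E is at 0.21, and the other lines stand between 0.49 and 0.99.

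Among the heavy chains, HLA-B and HLA-C, the classical molecules that present peptides to CD8+ T cells, had like profiles. The value of HLA-B, averaged over 3 probe sets, was -0.072 and -0.46 on control arrays 1 and 2, and -0.0024, 0.44 and 0.35 under siRNAs 1, 2 and 3. The siRNA arrays stood above both controls, with siRNA 1 only 0.070 above control array 1. The mean difference was 0.53 ± 0.23 (SD, n = 3 siRNAs), or 1.44-fold (limma adjusted p = 0.9999, unadjusted p = 0.255). HLA-C, over 4 probe sets, read -0.093 and -0.35 on control arrays 1 and 2, and 0.20, 0.77 and 0.50 under siRNAs 1, 2 and 3. Its groups did not overlap, and its mean difference was 0.71 ± 0.29 (SD, n = 3 siRNAs), or 1.64-fold. Against control array 1 alone HLA-B stood at 0.33 and HLA-C at 0.58.

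HLA-F, a nonclassical heavy chain found mostly inside cells, had another order of the siRNAs. It read -0.068 and -0.34 on control arrays 1 and 2, and 0.88, 0.46 and -0.0033 under siRNAs 1, 2 and 3. Here siRNA 1 was highest and siRNA 3 lay only 0.065 above control array 1. The mean difference was 0.65 ± 0.44 (SD, n = 3 siRNAs), or 0.43 without siRNA 1. HLA-E, which presents leader peptides of other heavy chains to natural killer cell receptors, was high under siRNA 2 alone. Its values were 0.10 and -0.15 on control arrays 1 and 2, and -0.16, 0.75 and -0.041 under siRNAs 1, 2 and 3, so the groups overlapped. Its mean difference was 0.21 ± 0.49 (SD, n = 3 siRNAs), and -0.072 without siRNA 2.

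The heavy chain probe sets carry a limit of their own. Of 12 such probe sets 11 have the suffix _x_at, by which the platform marks probes that may bind other transcripts, and HLA genes are closely similar. Under siRNA 2 the value lay above both controls in 12 of the 12, under siRNA 1 in 9 and under siRNA 3 in 7. Over all genes the shares were 38.1%, 32.2% and 35.2% under siRNAs 2, 1 and 3. Those are shares of genes, while these probe sets can share transcripts, so the counts are not of independent readings. The 1 probe set without the suffix, for HLA-E, read 0 and 0.21 on control arrays 1 and 2, and -0.48, 0.96 and -0.095 under siRNAs 1, 2 and 3. It shared the high value under siRNA 2, while its mean difference was 0.023. Within HLA-C, 1 of the 4 probe sets had the highest readings under siRNAs 1 and 2, at 0.90 and 1.32 from the control mean, and stood at 0.10 under siRNA 3, where the other 3 probe sets stood between 0.90 and 0.97. For HLA-F both probe sets were lowest under siRNA 3, at 0.24 and 0.16. HLA-B, HLA-C and HLA-F had no probe set without the suffix, so how far their values are separate readings was not tested.

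**Figure D2:**
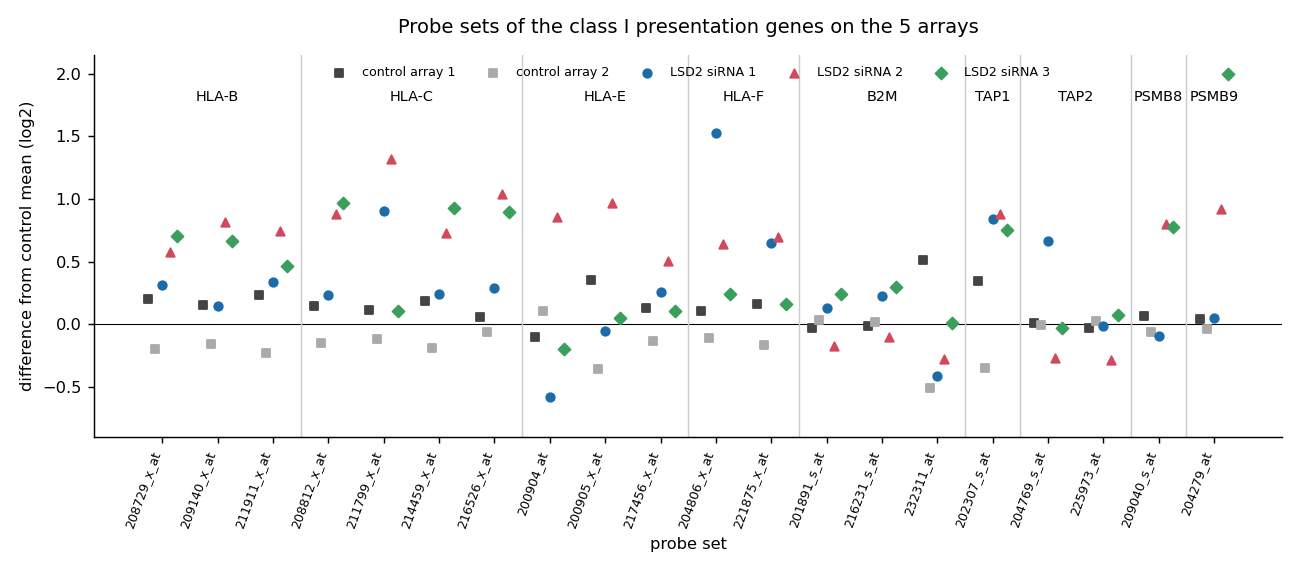
Difference from the control mean (y, log2) of the 20 probe sets of the 9 genes (x, grouped by gene), with squares for the 2 control arrays and coloured symbols for the 3 siRNAs. The red triangles of siRNA 2 top both squares in all 12 HLA probe sets. Of all genes, 38.1% lay above both controls under siRNA 2. The highest point is PSMB9 under siRNA 3 at 1.99.

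B2M, the light chain that every classical heavy chain needs to leave the endoplasmic reticulum, stayed near the control. It read 0.23 and -0.077 on control arrays 1 and 2, and 0.060, -0.11 and 0.26 under siRNAs 1, 2 and 3, with a mean difference of -0.0064 ± 0.18 (SD, n = 3 siRNAs). The groups overlapped. Its 3 probe sets differed: those with the suffix _s_at stood at 0.066 and 0.14, and the other, whose control arrays read 0.79 and -0.23, at -0.23. From each gene's difference from its own control mean, that of B2M on the same array was then subtracted. For HLA-C the result was 0.43, 1.18 and 0.54 under siRNAs 1, 2 and 3. For HLA-B it was 0.28, 0.90 and 0.43. HLA-F gave 1.10 and 0.85 under siRNAs 1 and 2 and 0.018 under siRNA 3. HLA-E gave -0.11, 0.96 and -0.20.

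The peptide transporter's subunit genes differed from each other. TAP1 gave the most even difference of the 9 genes from the control mean, at 0.84, 0.88 and 0.75 under siRNAs 1, 2 and 3 with a mean of 0.82 ± 0.067 (SD, n = 3 siRNAs), or 1.77-fold (limma adjusted p = 0.9999, unadjusted p = 0.0813). It read -0.40 on control array 1, -1.09 on control array 2 and 0.091, 0.13 and 0 on the siRNA arrays. The control arrays thus lay 0.69 apart, farther than the siRNA arrays did, and the mean was 0.48 against control array 1 and 1.17 against control array 2. TAP1 was read by 1 probe set, and against the spike-matched control it stood at 0.49, 0.53 and 1.09, which was less even. TAP2 read 0.0017 and 0.020 on control arrays 1 and 2, and 0.34, -0.27 and 0.033 under siRNAs 1, 2 and 3. Its control arrays were nearly equal, the siRNA arrays lay on both sides of them, and the mean difference was 0.022 ± 0.30 (SD, n = 3 siRNAs). The value under siRNA 1 came from the probe set with the suffix _s_at, at 0.66, while the other stood at -0.012.

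The immunoproteasome genes were high under siRNAs 2 and 3 and at the control level under siRNA 1. PSMB9, which replaces PSMB6, read -0.0094 and -0.092 on control arrays 1 and 2, and 0, 0.87 and 1.94 under siRNAs 1, 2 and 3. The value under siRNA 1 was only 0.0094 above control array 1, and siRNA 3 was far above all other arrays. The mean difference was 0.99 ± 0.97 (SD, n = 3 siRNAs), or 1.98-fold (limma adjusted p = 0.9999, unadjusted p = 0.274), the highest of the 9 genes and the least even, and it was 0.48 without siRNA 3. PSMB8, which replaces PSMB5, read 0 and -0.13 on control arrays 1 and 2, and -0.16, 0.74 and 0.71 under siRNAs 1, 2 and 3. Here siRNA 1 lay just below both controls, and the mean difference was 0.49 ± 0.51 (SD, n = 3 siRNAs), or 0.79 without siRNA 1. Each gene had 1 probe set, neither with the suffix _x_at. The standard subunit's difference from its own control mean was also subtracted on the same array. This gave -0.39, 0.83 and 1.47 for PSMB9 less PSMB6 under siRNAs 1, 2 and 3. For PSMB8 less PSMB5 it gave -0.030, 0.83 and 0.50.

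**Figure D3:**
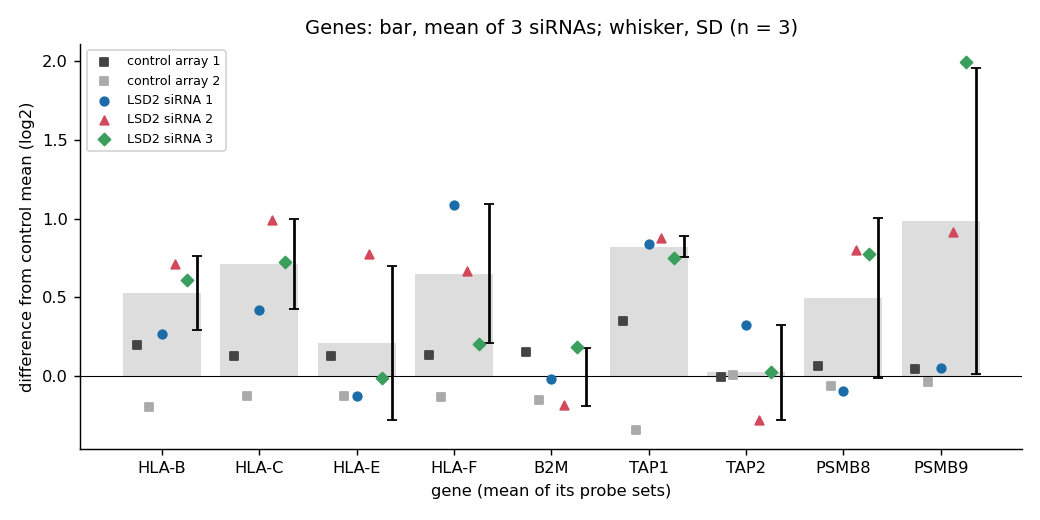
Difference from the control mean (y, log2) of each of the 9 genes (x), with squares for the control arrays, coloured symbols for the siRNAs, bars for the mean of the 3 siRNAs and whiskers for the SD (n = 3). The siRNA symbols of TAP1 lie within 0.75 to 0.88, while those of PSMB9 spread from 0.051 to 1.99.

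TAP2, PSMB8, TAP1 and PSMB9 are neighbours within the class II part of the MHC, and adjacent pairs differed in their change from the control. Each gene is taken here as its difference from its own control mean. PSMB9 differed from TAP1, with which it shares an intergenic stretch, by -0.79 under siRNA 1, 0.037 under siRNA 2 and 1.25 under siRNA 3. PSMB8 differed from TAP2 by -0.42, 1.08 and 0.75. From control array 1 to control array 2 the first pair's difference moved by 0.61 and the second pair's by -0.15. In these pairs the subunit gene's difference from control was below that of the transporter gene under siRNA 1 and above it under siRNA 3. The order was the same against the spike-matched control, with PSMB9 at -0.48, 0.34 and 0.94 from TAP1 and PSMB8 at -0.49, 1.01 and 0.83 from TAP2. With 1 array per siRNA these differences between siRNAs could not be tested.

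**Figure D4:**
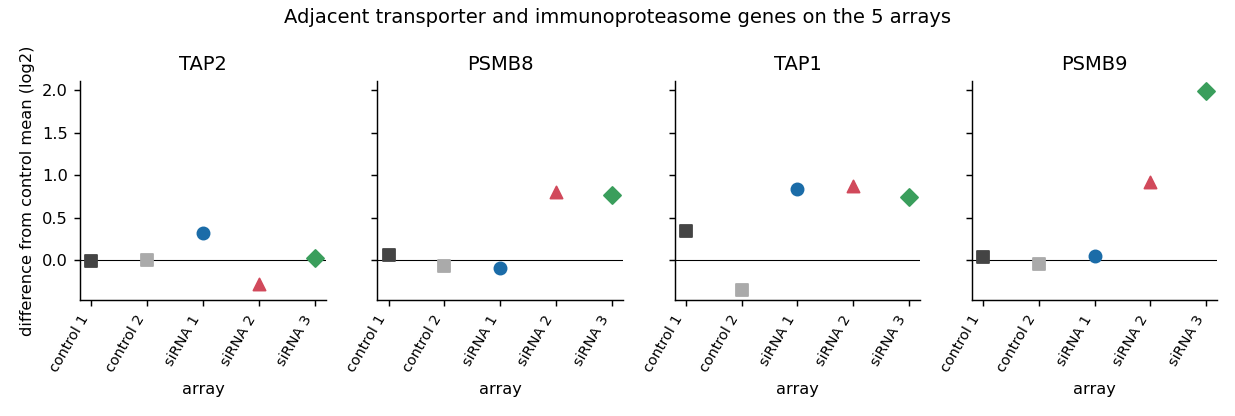
Difference from the control mean (y, log2) of TAP2, PSMB8, TAP1 and PSMB9 on the 5 arrays (x). PSMB8 and PSMB9 are at the control level under siRNA 1 and high under siRNAs 2 and 3, while the siRNA points of TAP1 are level.

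Other genes of antigen processing stood nearer to the control. Of 12 genes for peptide loading and trimming, 1, the aminopeptidase gene ERAP2, lay above both controls under all 3 siRNAs and 0 below, with a list median of 0.0095. That count and those of the next lists lie near the 8.63% above and 10.1% below of all genes or under them. ERAP2, which trims peptides in the endoplasmic reticulum, stood at 0.94, 0.60 and 1.14 under siRNAs 1, 2 and 3. TAPBPL, a peptide editor related to tapasin, had the highest mean of the list at 1.13 ± 0.68 (SD, n = 3 siRNAs), but its control arrays differed by -1.37 and the groups overlapped. The chaperone gene HSPA5 was lowest at -0.18, and tapasin itself, TAPBP, stood at -0.040. Among 10 proteasome partners of the immunosubunits, the list median was 0.085, and 1, the assembly factor gene POMP, lay above both controls under all 3 siRNAs, at 0.29, 0.36 and 0.37. The highest was the standard subunit gene PSMB7 at 0.51 and the lowest PSMB1 at -0.34. PSMB10, the third inducible catalytic subunit, stood at -0.60, -0.12 and 0.51 under siRNAs 1, 2 and 3. The 6 cytosolic peptidase genes ran from TPP2 at -0.054 to NPEPPS at 0.17, with 0 beyond both controls in either direction under all 3 siRNAs.

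Genes related to class I by structure ranged widely. Of 7 class I-like genes measured, 4 lay above both controls under all 3 siRNAs and 0 below, where 8.63% and 10.1% of all genes did, with a median of 0.69. MR1, which presents vitamin B metabolites to MAIT cells, stood at 1.14, 1.62 and 0.74 under siRNAs 1, 2 and 3. FCGRT, the heavy chain of the neonatal Fc receptor, which pairs with B2M, stood at 0.67, 1.23 and 1.07. MICA and MICB, ligands of the receptor NKG2D, had means of 0.69 each. AZGP1, which encodes a secreted class I-like protein, was lowest at -0.54 ± 1.74 (SD, n = 3 siRNAs). HLA-G, whose probe sets are all of the _x_at kind, stood at 0.96, 0.54 and 0.19, in the same order of siRNAs as HLA-F. In limma 0 of the 7 had an unadjusted p under 0.05, and MR1, with the lowest p of the 7, had an adjusted p = 0.9999.

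The upstream lists had medians of the genes' mean differences below 0, though the regulators' median changed sign between siRNAs. Of 12 class I regulators measured, 1 lay above both controls under all 3 siRNAs and 1 below, near the 8.63% and 10.1% of all genes. Their median was -0.090, and by siRNA it was -0.14, 0.20 and 0.026 under siRNAs 1, 2 and 3. NFYB, a subunit of the factor that binds CCAAT boxes, was lowest at -0.56 ± 0.35 (SD, n = 3 siRNAs), below both controls under each siRNA. IRF2, an interferon regulatory factor gene, was highest at 0.58 ± 0.20, with control arrays that differed by -0.83. IRF1 stood at 0.30, 0.35 and 0.26 but had a mean of -0.076 against control array 1. NLRC5, the class I transactivator gene, was not analysed here. Of 10 interferon receptor and signalling genes, 3 lay below both controls under all 3 siRNAs and 1 above, where 10.1% and 8.63% of all genes did. Their median was -0.24, against -0.023 over all genes, and their median difference of control array 2 from control array 1 was 0.28. The kinase gene JAK1 was lowest, at -0.78, -0.54 and -0.47, and SOCS1, an inhibitor of interferon signalling, highest at 0.75, 1.05 and 0.39. Among 10 histone and DNA modifying genes, which include known silencers of class I genes, KDM1B was lowest and SUZ12, a Polycomb subunit gene, highest at 0.63. There 3 genes lay below both controls under all 3 siRNAs, the siRNA target KDM1B among them, and 1 above, with a median of -0.29. Of all genes 10.1% lay below and 8.63% above.

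Interferon-responsive genes outside the MHC stood above the median of all genes, but their control arrays also differed. The median difference of control array 2 from control array 1 was -0.41 in the interferon-gamma list and -0.32 in the type I list. Over all genes it was -0.058. Of 15 genes responsive to interferon-gamma, 4 lay above both controls under all 3 siRNAs and 0 below, where 8.63% and 10.1% of all genes did, with a median of 0.29. Their medians by siRNA were 0.29, 0.43 and 0.52, and -0.14, 0.21 and 0.66 against the spike-matched control, so the sign turned under siRNA 1. The highest was the guanylate binding protein gene GBP2 at 0.52, 1.26 and 1.20, and the lowest SAMHD1 at -0.15. Of 18 type I responders, 6 lay above and 0 below, against the same 8.63% and 10.1%, with a median of 0.51. Their medians by siRNA were 0.10, 0.71 and 0.78, and 0.11, 0.46 and 0.83 against the spike-matched control. OAS1 was highest at 1.75 ± 0.35 (SD, n = 3 siRNAs), with control arrays that differed by -0.85, and OAS2 was lowest at -0.39. In limma OAS1 was the 1 gene of the 18 with an unadjusted p under 0.05, against 1.69% of all genes, and its adjusted p = 0.9999. Other genes of the MHC region, had a median of 0.074 over 14, with 1, GNL1, above both controls under all 3 siRNAs at a mean of 0.53 and POLR1H lowest at -0.40.

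**Figure D5:**
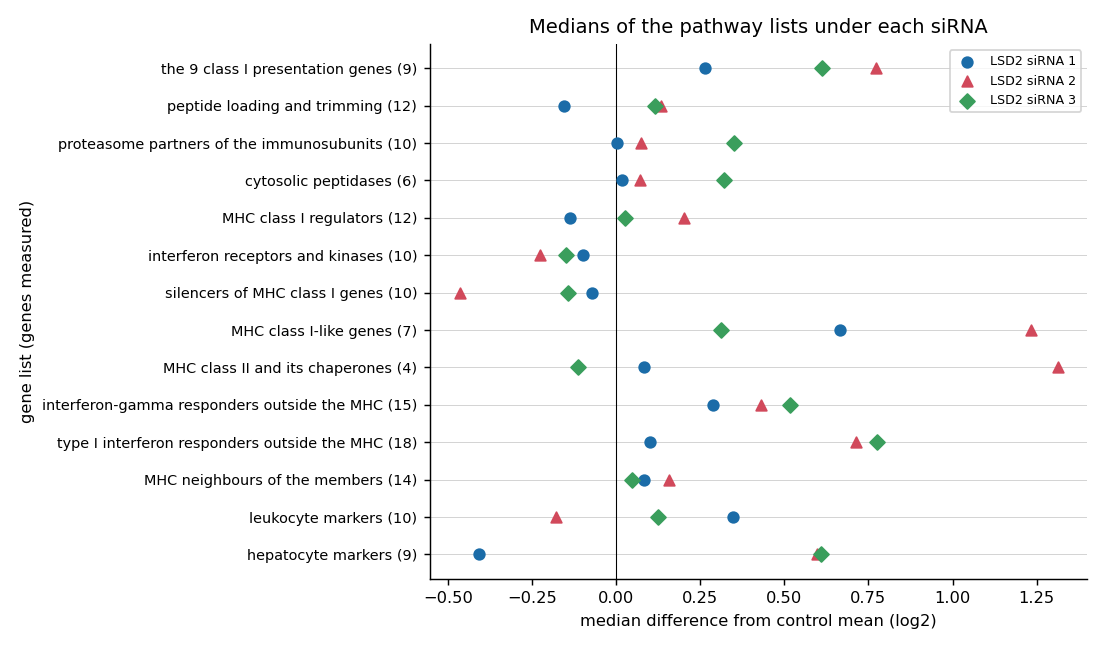
Median difference from the control mean (x, log2) under each siRNA (symbols) for the 9 class I presentation genes and 13 gene lists (y, with the number of genes measured). All symbols lie to the right of 0 in 7 rows, which are class I presentation, class I-like genes, both interferon responder lists, proteasome partners, cytosolic peptidases and MHC neighbours, and to the left in the interferon receptor and silencer rows.

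Markers of other cells and of the hepatocyte state are given beside these values. Of 10 leukocyte markers, 1, CD14, lay above both controls under all 3 siRNAs and 1, CD3E, below. These counts lie near the 8.63% above and 10.1% below of all genes. The list's medians were 0.35, -0.18 and 0.12 under siRNAs 1, 2 and 3. CD14, also made by hepatocytes, was highest at 1.61, and the B cell gene MS4A1 lowest at -1.11. TYROBP had a mean of 1.55, with control arrays that differed by -5.37. Since abundance is not in the values, whether any marker was present cannot be read, and the part of other cells was not tested. Of 4 class II genes, 0 lay beyond both controls in either direction under all 3 siRNAs, against the same 8.63% and 10.1%. HLA-DPB1 was highest at 1.30, its control arrays differing by -3.66, and HLA-DMA lowest at -0.26. The 9 hepatocyte markers had medians of -0.41, 0.60 and 0.61 under siRNAs 1, 2 and 3, from AFP at -0.16 to ALB at 1.23. PSMB8 and PSMB9 were also high with siRNAs 2 and 3. With siRNA 1 they stood at -0.095 and 0.051, close to the control mean, while the hepatocyte median was -0.41. The part of the hepatocyte state in the values of PSMB8 and PSMB9 was not tested.

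The profiles nearest to the mean profile of the 9 genes were sought among genes outside the members and the lists. After centring each gene on its mean, the smallest mean absolute difference from it over the 5 arrays was 0.033 for RGS3, a regulator of G protein signalling. THRB, a thyroid hormone receptor gene, followed at 0.043, then SNX24 and MCUR1, each at 0.057, and ZNF275 at 0.059. Of the 9 genes HLA-B was nearest at 0.060 and PSMB9 farthest at 0.458. RGS3 itself stood at 0.41, 0.63 and 0.64 under siRNAs 1, 2 and 3.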

How the data were processed

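The 5 GeneChip arrays held RNA from HepG2 cells. The authors summarised the arrays with MAS5, per the submitters' processing notes, and the values they deposited were taken as log2. Their base, the scaling between arrays and the filter on probe sets are not given in the sources used here. The median was 0 in all 30137 probe sets and on all arrays, so the intensity over background is unknown, and the number of arrays limits the precision. The plan allowed for linear values; as none were present, no filter on low values was applied.

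Probe sets with 1 symbol in the platform annotation (24151) were averaged per gene, giving 12893 genes. The 3 siRNA arrays were set against the averaged control arrays with lmFit and eBayes of limma 3.58.1 (R 4.3.3), two-sided, on 2 residual degrees of freedom, with Benjamini-Hochberg adjustment over all genes and a threshold of 0.05. The single control sample is taken to have the siRNAs' spread. The code of the fit was run on simulated data with a spread far below that of these arrays, so that run does not show its power here. The spike-in side came from 24 poly-A probe sets.

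The members and the 13 gene lists (178 genes, 137 measured) were chosen with earlier results of these data known. Named are every member, KDM1B, the highest and lowest gene of each list and the 5 genes nearest in profile; other genes were chosen after their values were seen. Promoters came from RefSeq tables (GRCh38.p14); no build is named for the array. Tables and plots used Python 3.11.15, pandas 2.3.3 and matplotlib 3.10.9.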

Additional observations from a re-analysis of the deposited data

How the results depend on the processing

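The members' median difference of 0.53 lay between 0.47 and 0.58 under quantile normalization, array centring (which changes nothing, as the array medians are 0), other summaries of probe sets, the control filter, separate arrays, the spike-in side as a block, the spike-matched control and robust eBayes. Leaving out 1 array gave 0.43 to 0.72, with 5 or 6 members above both controls. Without _x_at probe sets 6 members were left, with a median of 0.26 and 2 of them above both controls; without _x_at and _s_at probe sets 4 were left, at -0.026 with 1 above. Both remove HLA-B, HLA-C and HLA-F, and the second also TAP1 and PSMB8. With the replicate number as a block, which pairs siRNAs 1 and 2 with control arrays of the same number, the median was 0.48. The control arrays are technical replicates, so the numbers do not pair samples. Both block fits and the fit with separate arrays count the control arrays as 2 samples.

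limma called 0 genes at an adjusted p under 0.05 in every fit. At an unadjusted p under 0.05 the count was 218, and 344 under quantile normalization, 117 with the control filter, 483 with arrays separate, 498 with the spike-in side as a block, 707 with the replicate block, 382 without siRNA 1 and 431 without control array 1. Values near 0 changed sign: B2M to 0.024 (quantile), 0.11 (median of probe sets), 0.10 (control filter) and, leaving out 1 array, between -0.16 and 0.15, with 0.083 without siRNA 2; TAP2 to -0.075 with 1 probe set by suffix and -0.075 without _x_at and _s_at probe sets, and between -0.13 (without siRNA 1) and 0.17 leaving out 1 array; HLA-E between -0.072 (without siRNA 2) and 0.38. The cause was not tested.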
